A study of Homo sapiens with 4 samples.

Results

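G2/M and mitotic genes encode the machinery that carries a cell from the end of DNA replication through chromosome segregation to division. A list of 50 of them was followed in EJM, a cell line from human multiple myeloma, after induction of an IκBα super-repressor. The list was set by gene symbol, and 36 of the 50 genes had a value on at least 3 of the 4 arrays, among 7713 features measured as often (4212 named genes and 3501 unnamed probes). Of the 36, 34 had values on all 4 arrays, while CCNB2 and RACGAP1 had values on 3. No probe carried the symbol of the other 14 (UBE2T, PTTG1, ESPL1, KIF20A, KIF22, KIF2C, KIF4A, NUSAP1, PRC1, STMN1, NCAPD2, NCAPG, SMC4 and ECT2), which were not analysed here, and 5073 probes had no symbol.

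Each array set induced EJM cells, labelled with Cy5, against uninduced cells of the same line, labelled with Cy3. Both channels carried the same genotype, the IκBα super-repressor under control of the tetracycline repressor, and the induced cells received 20 µg/ml doxycycline for 1, 2, 3 or 4 days, with 1 array a day. The super-repressor is a form of IκBα that holds NF-κB in the cytoplasm and resists breakdown. The labels give no dye swap, no array of doxycycline on cells without the transgene, and no statement on whether the control was kept in culture for the same time as each induced sample. Effects of the drug, the dye and the culture time therefore cannot be told apart from those of the repressor in the mean. Effects of the drug and the culture time cannot be told apart from it in the change over days either, where only a dye effect equal on every array would cancel. The values are log ratios, taken as log2 of induced over uninduced from the dyes in the labels, and neither the base nor the direction is stated in the sources used here. With the ratio turned, every sign, every higher or lower and every order of lowest and highest below would turn with it, and with another base every fold would change while signs and orders would not.

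Passage through mitosis is driven by CDK1 bound to cyclins A and B, then by Polo-like and Aurora kinases, while a checkpoint at the kinetochores holds back the anaphase-promoting complex until every chromosome is attached. Most of these genes are transcribed late in the cycle, under B-MYB, the MuvB complex and FOXM1, so their RNA is abundant in dividing cells and scarce in resting ones. In cultured myeloma cells they are a widely used measure of proliferation. RNA from a whole culture cannot tell fewer cells in G2 and mitosis from less of each RNA per cell.

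The mitotic genes lay slightly above the control on day 1 and below it on days 2, 3 and 4. Over days 1 to 4 their median log2 ratio took the values 0.145, -0.223, -0.184 and -0.372, when the median of all features was -0.062, -0.081, 0.017 and 0.012. On day 1, 26 of 35 genes with a value lay above 0 (44.1% of all features did). Below 0 lay 31 of 35 on day 2 (58.3% of all features), 30 of 36 a day later (47.0%) and 32 of 36 at the end (48.4%). The group therefore stood on opposite sides of the control on the first and the last day.

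**Figure D1:**
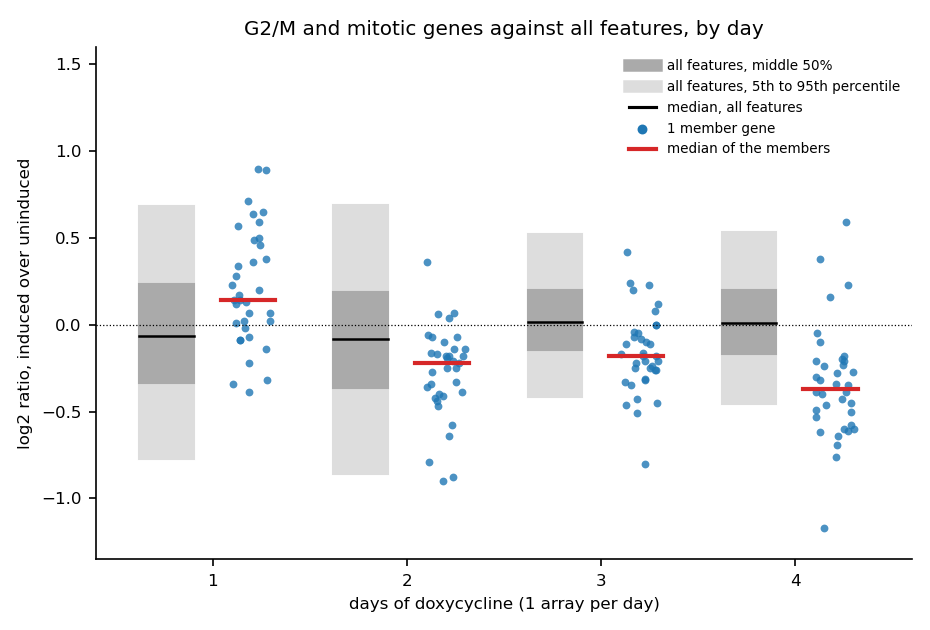
Log2 ratio of induced over uninduced cells on each day, with 1 array per day. Blue points are the 36 measured mitotic genes and the red line is their median, which runs from 0.145 on day 1 to -0.372 on day 4, while grey boxes give the middle 50% and the 5th to 95th percentile of all features and the black line their median.

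Single-day values past 1.5-fold lay on the higher side on day 1 and on the lower side afterwards. On day 1, 6 genes were at least 1.5-fold higher (7.53% of all features were), CDKN3, BUB3, UBE2S, BIRC5, TOP2A and FOXM1, and 0 were at least 1.5-fold lower (10.6%). On day 2, 4 were at least 1.5-fold lower (12.6%), TTK, CENPA, CENPE and NCAPG2, a share near that of the whole array, and 0 were as much higher (6.78%). Day 3 had 1 that was lower, NCAPG2 (1.69%), and 0 higher (3.58%). Day 4 had 8 that were lower (2.39%), CDK1, AURKA, CDC20, UBE2S, BIRC5, NCAPG2, TOP2A and FOXM1, and 1 gene at least 1.5-fold higher (4.09%), NCAPH. UBE2S, BIRC5, TOP2A and FOXM1 were thus past 1.5-fold in opposite directions on days 1 and 4. Where a probe lacks a value on some day, the gene average rests on other probes that day, and this decides some of these places. From probes valued on all 4 arrays alone, 8 of 34 genes were at least 1.5-fold lower on day 4 (2.3% of named genes), but they were CKS1B, PLK1, UBE2S, CENPA, BIRC5, TPX2, NCAPG2 and TOP2A, while CDK1, AURKA, CDC20 and FOXM1 did not reach 1.5-fold. FOXM1 was also just short on day 1 by those probes, so that UBE2S, BIRC5 and TOP2A alone were past 1.5-fold on both days. By the same probes 3 genes were at least 1.5-fold lower on day 2 (10.1% of named genes), TTK, CENPE and NCAPG2, without CENPA. On day 3 there were 2 (1.34%), MAD2L1 and NCAPG2. The arrays differed in spread, wider on days 1 and 2 (SD over all probes 0.517 and 0.569) than on days 3 and 4 (0.345 and 0.38), and the part this has in the counts was not tested.

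Of the 3 daily steps, the one from day 1 to day 2 was the largest downward. Of 34 genes with values on both days, 31 were lower on day 2 than on day 1 (57.7% of all features were), with a median difference of -0.403 against -0.078 for all features. From day 2 to day 3 the step was small and, for most genes, upward: 12 of 35 were lower on day 3 (41.9%). From day 3 to day 4, 27 of 36 were lower (53.5%), with a median difference of -0.196 against -0.019. Over the whole course 30 of 35 were lower on day 4 than on day 1 (46.1%), with a median difference of -0.565 against 0.053. Among the 34 genes with all 4 values, 28 were highest on day 1 (31.3%), 23 were above 0 on day 1 and below 0 on day 4 (23.0%), 18 were lowest on day 4 (23.2%), and 9 were lower each day than the day before (9.27%). These 9 were CDK1, CDC25B, CKS1B, PLK1, BUB1, UBE2S, BIRC5, HMMR and FOXM1. PLK1 is among them only through a probe at 0.83 on day 2 that had no value on day 3, since its other 3 probes were higher on day 3 than on day 2. For CDK1 and BUB1 only the average fell each day, and no single probe valued on all 4 arrays did. From day 1 to day 2, 1 such probe of CDK1 rose from -0.11 to 0.11 and 1 of BUB1 from 0.06 to 0.17. From day 2 to day 3 the other rose from -0.55 to -0.50 in CDK1 and from -0.05 to 0.03 in BUB1. From probes valued on all 4 arrays alone, 10 of 34 genes were lower each day (9.47% of named genes), without PLK1 and with AURKB and BUB3 added. A further 7 genes were below 0 on all 4 days (13.4%), which were CCNA2, AURKB, NEK2, BUB1B, UBE2C, CENPE and NCAPG2.

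Promoter stretches of 8 members are shown, searched for the letters of 2 elements long known from genes of G2 and mitosis. In 6 the letters of both were found, in CCNB1 those of 1, and in UBE2S neither within the stretch shown. CDC25C, among the 6, ran against the downward course of the others. They were picked after motif positions were seen. The sequences are from RefSeq (GRCh38.p14), cover the 150 bases before the annotated transcription start, and are written 5′ to 3′ on the gene's strand. Capitals mark CCAAT, the box bound by the factor NF-Y, and TTTGAA, a common form of the cell cycle genes homology region bound by MuvB, on either strand (ATTGG and TTCAAA on the other).
CCNB2, chr15:59104996-59105145, plus strand: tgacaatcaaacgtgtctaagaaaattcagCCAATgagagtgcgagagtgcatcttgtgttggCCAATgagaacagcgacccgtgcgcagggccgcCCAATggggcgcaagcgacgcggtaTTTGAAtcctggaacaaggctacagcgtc
PLK1, chr16:23678739-23678888, plus strand: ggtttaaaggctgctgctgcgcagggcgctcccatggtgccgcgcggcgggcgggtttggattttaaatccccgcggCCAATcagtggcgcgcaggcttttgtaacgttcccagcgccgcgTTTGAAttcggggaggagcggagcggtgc
CKS1B, chr1:154974531-154974680, plus strand: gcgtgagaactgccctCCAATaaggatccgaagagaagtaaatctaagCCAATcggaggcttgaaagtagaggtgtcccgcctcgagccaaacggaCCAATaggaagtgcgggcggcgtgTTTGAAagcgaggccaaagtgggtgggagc
CKS2, chr9:89311045-89311194, plus strand: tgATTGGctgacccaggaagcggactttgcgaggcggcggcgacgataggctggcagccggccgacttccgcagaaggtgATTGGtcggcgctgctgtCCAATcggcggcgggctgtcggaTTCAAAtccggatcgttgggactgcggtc
HMMR, chr5:163460482-163460631, plus strand: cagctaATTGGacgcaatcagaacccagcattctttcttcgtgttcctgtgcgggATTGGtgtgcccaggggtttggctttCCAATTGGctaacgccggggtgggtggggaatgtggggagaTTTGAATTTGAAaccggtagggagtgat
CDC25C, chr5:138331805-138331954, minus strand: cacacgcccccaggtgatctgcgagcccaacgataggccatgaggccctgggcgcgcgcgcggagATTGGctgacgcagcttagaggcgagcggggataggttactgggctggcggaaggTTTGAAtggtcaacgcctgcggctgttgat
CCNB1, chr5:69167000-69167149, plus strand: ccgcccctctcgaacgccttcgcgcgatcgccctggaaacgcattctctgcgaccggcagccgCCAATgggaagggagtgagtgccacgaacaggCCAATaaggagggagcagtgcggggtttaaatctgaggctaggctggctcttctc
UBE2S, chr19:55407789-55407938, minus strand: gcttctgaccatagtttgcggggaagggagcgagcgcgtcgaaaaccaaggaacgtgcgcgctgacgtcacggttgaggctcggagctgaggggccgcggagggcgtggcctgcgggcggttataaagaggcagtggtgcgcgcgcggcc

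In CCNB2, PLK1 and CKS2 the TTTGAA letters began 29 bases before the start, in CKS1B and in the CDC25C window shown 30, and in HMMR at 28 and again at 22. CCAAT letters lay farther out, with the nearest to the start at 54 bases in CCNB2 and CKS1B, 73 in PLK1, 52 in CKS2, 66 in HMMR and 85 in CDC25C. CCNB1 held CCAAT at 87 and 55 bases and no TTTGAA, and UBE2S, among the genes with the steepest course, held neither in the stretch shown. The longer window of UBE2S did hold CCAAT. Forms of the homology region other than TTTGAA and TTCGAA were not searched for. CDC25C has 4 windows with different starts in the table, of which the one with both elements is printed, and in the same stretch of the other 3 there was no TTTGAA and 1 CCAAT, at 12 bases in 1 of them. In HMMR a CCAAT and its reverse share letters, and no other marked pair in these 8 stretches overlaps. The table held windows from 250 bases before to 50 after the start for 28 of the 36 measured genes, and AURKA, BUB3, TTK, UBE2C, BIRC5, TPX2, RACGAP1 and FOXM1 were not in it. Among their 37 windows, 28 held CCAAT (75.7%, against 34.6% of all 35116 windows in the table), 21 held TTTGAA (56.8% against 15.2%), and 2 held TTCGAA (5.41% against 1.45%), the variant of the homology region that reads the same on both strands. TTTGAA beginning 20 to 40 bases before the start, a stretch chosen after the positions were seen, was in 9 windows (24.3% against 1.18%). These shares are properties of the gene list and do not use the arrays. As a description, the 18 genes with TTTGAA in a window and all 4 values had a median slope on day of -0.18 (log2 units), with 15 below 0. The 9 without it had -0.06, with 6 below 0, and the median of all features was 0.019. Among the 9 were UBE2S at -0.44 and CDC25B at -0.35, and CDC25B and BUB1 hold TTCGAA instead. The 8 genes with no window, BIRC5, FOXM1 and BUB3 among them, are in neither group. The difference was not tested.

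CDK1, the kinase that triggers mitosis, read 0.02, -0.22, -0.24 and -0.60 on days 1 to 4, so it was level with the control on day 1 and 1.51-fold lower on day 4. That day 4 value includes a probe at -1.23 with no value on any other day and another near 0 with none on days 1 and 2, and the 2 probes valued on all 4 arrays read 0.02, -0.22, -0.37 and -0.58, or 1.49-fold lower at the end. Its partner cyclin B1 (CCNB1) read 0.46, -0.21, -0.11 and -0.45, above the control on day 1 alone. Cyclin B2 (CCNB2) had 0.23, -0.46 and -0.20 on days 1, 3 and 4, from 1 probe. Cyclin A2 (CCNA2), which acts in S phase as well as in G2, read -0.07, -0.40, -0.26 and -0.30 and was below 0 on all 4 days. The B-type cyclins were thus above the control on day 1 and cyclin A2 was not.

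The proteins that set CDK1 activity did not share a single course. CDC25B, the phosphatase that starts CDK1 activation, read 0.57, 0.36, -0.22 and -0.40, above the control on days 1 and 2 and below it on days 3 and 4. CDC25C, the phosphatase of the same family that completes activation, read 0.01, -0.33, 0.42 and 0.38, with days 3 and 4 above the control. Its 2 probes with all 4 values ran from -0.33 to 0.52 and from -0.22 to 0.19 between day 1 and day 4, and the remaining probe, with no value on day 2, was above 0 on the other 3 days, so the averages from the first 2 alone were -0.27, -0.33, 0.37 and 0.35. The CDK-binding subunits CKS1B and CKS2 read 0.14, -0.14, -0.45 and -0.58, and 0.13, -0.25, -0.04 and -0.43. CKS1B, whose gene is often gained in myeloma, was just short of 1.5-fold lower on day 4, and 1.72-fold lower by its 2 probes valued on all 4 arrays. CDKN3, a phosphatase that acts on CDKs, read 0.71 on day 1 and between -0.17 and -0.05 afterwards, so its day 1 value stood alone.

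**Figure D2:**
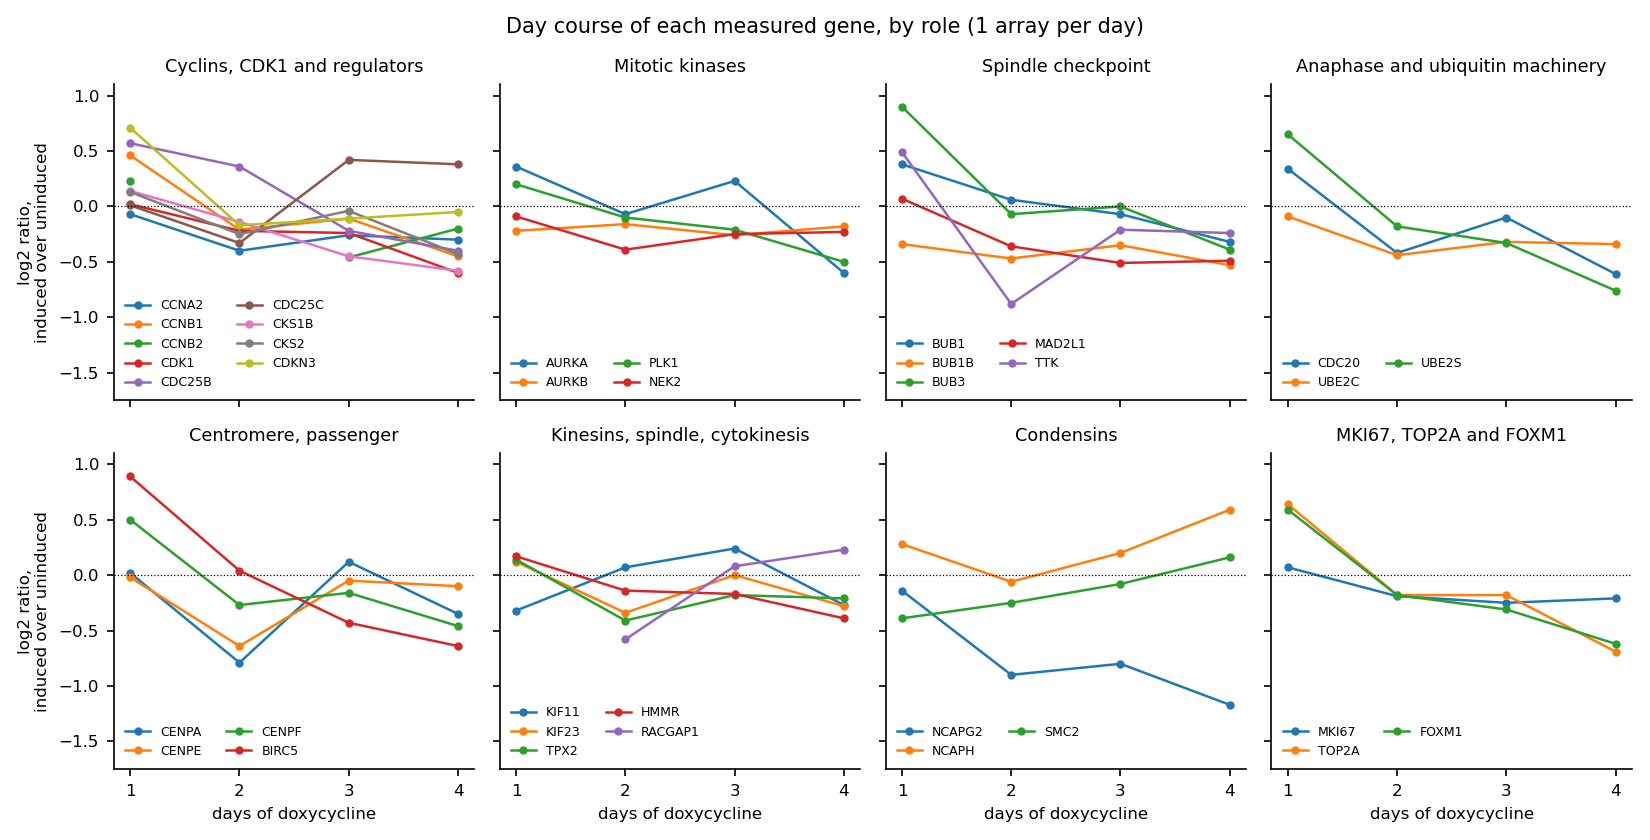
Log2 ratio of induced over uninduced cells for each of the 36 measured genes on each day, in 8 panels by role, each line being 1 gene and a gap a missing value. Most lines run from above 0 on day 1 to below 0 on day 4, while CDC25C, NCAPH, SMC2 and RACGAP1 end above 0.

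Of 8 genes named as mitotic kinases, counting CDK1 and, from the checkpoint, BUB1, BUB1B and TTK, 7 had a mean below 0 (56.0% of all features did). Their median on each day was 0.107, -0.191, -0.226 and -0.406. PLK1, the Polo-like kinase that drives centrosome maturation and mitotic entry, read 0.20, -0.10, -0.21 and -0.50. All 3 of its probes valued on days 1 and 4 were lower on day 4, by 0.69 for the gene average, and a further probe, which read 0.83 on day 2, had no value on days 1 and 3. The 3 probes alone read 0.20, -0.41, -0.21 and -0.65. AURKA, the Aurora kinase of the spindle poles, read 0.36, -0.07, 0.23 and -0.60, and its day 4 value was the lowest of its course. Its only probe valued on all 4 arrays read 0.17, 0.01, 0.17 and -0.38. AURKB, the Aurora kinase of the chromosomal passenger complex, stayed between -0.26 and -0.16 on all 4 days. Its 4 probes valued on days 1 and 4 split, 2 lower and 2 higher on day 4. By its 3 probes valued on all 4 arrays AURKB read -0.15, -0.16, -0.26 and -0.44. NEK2, a centrosomal kinase, was also below the control throughout, between -0.39 and -0.09. The gene averages of the 2 Aurora kinases thus differed in their course. By probes valued on all 4 arrays both were lowest on day 4, and only AURKA was above the control on days 1 to 3. The difference was not tested.

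All 5 measured genes of the spindle checkpoint were lower on day 4 than on day 1. BUB1B (BUBR1), which inhibits the anaphase-promoting complex, read -0.34, -0.47, -0.35 and -0.53 and was below the control on all 4 days. Its mean of -0.42 ± 0.09 (SD, 4 arrays) had a limma adjusted p of 0.223 and did not pass. Its 2 probes differed in course, from -0.18 to -0.99 for one and from -0.50 to -0.07 for the other between days 1 and 4. Their SDs were 0.33 and 0.21, so the smaller SD of the BUB1B average joins probes that moved in opposite directions. MAD2L1 (MAD2), the other direct inhibitor of the complex, read 0.07, -0.36, -0.51 and -0.49, and its 3 probes with all 4 values were all lower on day 4. Those 3 probes averaged -0.62 on day 3, or 1.54-fold lower. BUB1, the kinetochore kinase that recruits the others, read 0.38, 0.06, -0.07 and -0.32, and its 2 probes gave -0.634 and -0.002 on day 4. BUB3, the partner of BUB1 and BUBR1, read 0.90 on day 1, when its probes gave 1.96, 0.54 and 0.20. On day 4 BUB3 was at -0.39, with all 3 probes below 0. TTK (MPS1), the kinase at the head of the checkpoint, read 0.49, -0.88, -0.21 and -0.24, and its day 1 average joined probes at 1.09 and -0.12.

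By gene average the 3 measured genes of anaphase and ubiquitin transfer were all below the control on days 2, 3 and 4. Their day 4 median of -0.606 is the CDC20 average. CDC20, the activator that the checkpoint blocks, read 0.34, -0.42, -0.10 and -0.61. Its only probe valued on all 4 arrays read 0.005 on day 3, level with the control, and -0.44 on day 4. UBE2S, the enzyme that extends ubiquitin chains on the complex's substrates, read 0.65, -0.18, -0.33 and -0.76. This was 1.57-fold above the control on day 1 and 1.69-fold below it on day 4, and its 3 probes were each lower on day 4 than on day 1, with differences from -1.67 to -1.12. UBE2C, the enzyme that starts those chains, was below 0 on all 4 days by gene average, at -0.09, -0.44, -0.32 and -0.34. Its mean was -0.30 ± 0.15 (SD, 4 arrays; limma adjusted p = 0.37). Its 2 probes valued on all 4 arrays ran in opposite directions between days 1 and 4, from 0.28 to -0.73 and from -0.45 to -0.08. Their SDs were 0.45 and 0.16, against 0.15 for the average, in which the opposed courses partly cancel.

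At the centromere and midzone, BIRC5 (survivin), the passenger complex subunit that is also an inhibitor of apoptosis, had the widest range over days among the gene averages. It read 0.89, 0.04, -0.43 and -0.64, all from a single probe. CENPF, a kinetochore protein that peaks in G2, read 0.50, -0.27, -0.16 and -0.46, and each of its 5 probes valued on days 1 and 4 was lower on day 4. CENPA, the centromeric histone, read 0.02, -0.79, 0.12 and -0.35. CENPE, the kinetochore motor protein, read -0.02, -0.64, -0.05 and -0.10. For both the lowest average was that of day 2. For CENPE its 5 probes valued on all 4 arrays gave the same -0.64, but for CENPA the only such probe read -0.40 on day 2 and was lowest on day 4, at -0.59.

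Of 6 kinesins in the list with a KIF symbol, 2 had a probe under it, and these showed no common course. KIF11 (Eg5), the motor that pushes spindle poles apart, read -0.32, 0.07, 0.24 and -0.27 from 1 probe. KIF23, the midzone motor of the centralspindlin complex, read 0.12, -0.34 and -0.28 on days 1, 2 and 4, while its day 3 value matched the control. RACGAP1, the other centralspindlin subunit, had -0.58, 0.08 and 0.23 on days 2 to 4. The spindle assembly factor TPX2 read 0.14, -0.41, -0.18 and -0.21 (-0.68 on day 4 by its only probe valued on all 4 arrays), and the spindle protein HMMR 0.17, -0.14, -0.17 and -0.39. HMMR, with 3 probes all lower on day 4 than on day 1, was above 0 on day 1 and lower on each later day.

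Condensins, the ring complexes that compact mitotic chromosomes, were the most divided role. NCAPG2, a subunit of condensin II, read -0.14, -0.90, -0.80 and -1.17 from its only probe, and at 2.25-fold lower its day 4 value was the lowest of all 36 genes on any day. Its mean of -0.75 ± 0.44 (SD, 4 arrays; limma adjusted p = 0.196) was the lowest mean of the group and did not pass. NCAPH, a subunit of condensin I, read 0.28, -0.06, 0.20 and 0.59, and its probes disagreed, with 1 of 2 higher on day 4 than on day 1. SMC2, the ATPase common to both complexes, read -0.39, -0.25, -0.08 and 0.16 from 1 probe. By gene average NCAPG2 was thus farthest below the control on the day NCAPH and SMC2 were highest, for NCAPH through 1 of its 2 probes. The other condensin subunits in the list had no probe under their symbol.

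FOXM1, the transcription factor that activates many of these genes, read 0.59, -0.18, -0.31 and -0.62, and each of its 3 probes was lower on day 4 than on day 1, with differences from -1.45 to -1.02. TOP2A, the topoisomerase that untangles sister chromatids, read 0.64, -0.18, -0.18 and -0.69. Both averages were past 1.5-fold above the control on day 1 and past 1.5-fold below it on day 4, but by the 2 FOXM1 probes valued on all 4 arrays the values were 0.58 and -0.51, short of 1.5-fold. MKI67 (Ki-67), the antigen most used to count dividing cells, read 0.07, -0.19, -0.25 and -0.21, a flatter course by gene average. That day 4 average includes a probe at 0.69 with no value on any other day. The 3 MKI67 probes valued on all 4 arrays averaged 0.05, -0.30, -0.17 and -0.39, lowest on day 4. The 8 MKI67 probes with a value were not alike: one ran from 0.94 to -0.72 between days 1 and 4, another from -0.55 to -0.37 and another from -0.25 to -0.07. Of 5 MKI67 probes valued on both days, 3 were lower on day 4.

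**Figure D3:**
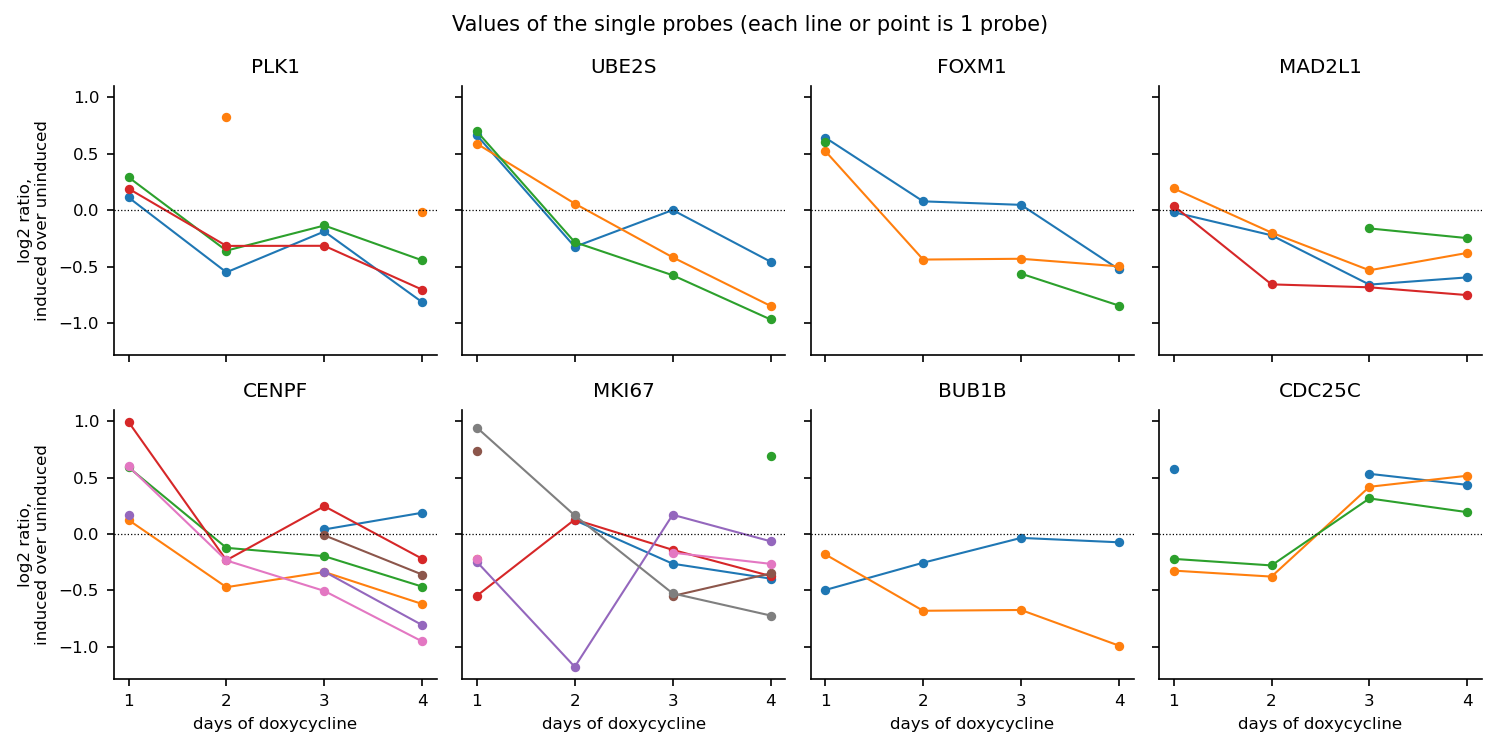
Log2 ratio of induced over uninduced cells for the single probes of PLK1, UBE2S, FOXM1, MAD2L1, CENPF, MKI67, BUB1B and CDC25C on each day, each line or lone point being 1 probe. The 3 probes of UBE2S run together from above 0 to below 0, while those of MKI67 and BUB1B diverge.

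Across the group, probes of a gene mostly ran the same way. The 36 genes had 108 probes, of which 101 had a value on some array and 70 on all 4. Of 83 probes valued on days 1 and 4, 68 were lower on day 4, or 81.9%, against 48.5% of all probes. In 28 genes at least 2 probes were valued on both days, and in 20 of them all probes were lower on day 4. The probes split in the other 8, which were AURKB, BUB1B, CDC25C, CENPE, MKI67, NCAPH, NEK2 and UBE2C. A gene average can rest on other probes on another day where a value is missing, as for CDK1, AURKA, PLK1, CDC20, CDC25C, CENPF, MKI67, TPX2 and TTK. From probes valued on all 4 arrays the members' median by day was 0.132, -0.248, -0.178 and -0.434, and 30 of 34 genes were lower on day 4 than on day 1 (49.9% of named genes).

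A straight line in day was fitted to the log2 ratios of the 34 genes with all 4 values, within a fit of 6427 features. No slope passed (0 of 34, and 0.0% of all features, limma adjusted p under 0.05; smallest adjusted p 0.304). Slopes were below 0 for 28 of the 34 genes (45.8% of all features), with a median of -0.177 log2 per day against 0.019. At an unadjusted p under 0.05, 12 slopes were below 0 (5.73%) and 0 above (9.26%). They were those of BIRC5 (-0.51 ± 0.10 log2 per day, standard error), UBE2S (-0.44 ± 0.10), TOP2A (-0.40 ± 0.10), FOXM1 (-0.38 ± 0.10), BUB3 (-0.38 ± 0.12), CDC25B (-0.35 ± 0.09), NCAPG2 (-0.30 ± 0.10), CENPF (-0.28 ± 0.11), CCNB1 (-0.26 ± 0.10), CKS1B (-0.25 ± 0.08), PLK1 (-0.22 ± 0.08) and BUB1 (-0.22 ± 0.08). Their limma adjusted p ran from 0.304 to 0.324. The count of 12 depended on each array: it was 1 without day 1 (3.98% of all features), 19 without day 2 (11.3%), 6 without day 3 (1.48%) and 1 without day 4 (1.2%). Without day 1 the slopes of BUB3, NCAPG2, CENPF and CCNB1 were -0.16, -0.14, -0.10 and -0.12, and those of BIRC5, UBE2S, TOP2A and FOXM1 -0.34, -0.29, -0.25 and -0.22. Without the day 1 array the median slope was -0.09, with 22 of 35 below 0, against 0.034 for all features, so the size of the day course depended on the day 1 array.

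**Figure D4:**
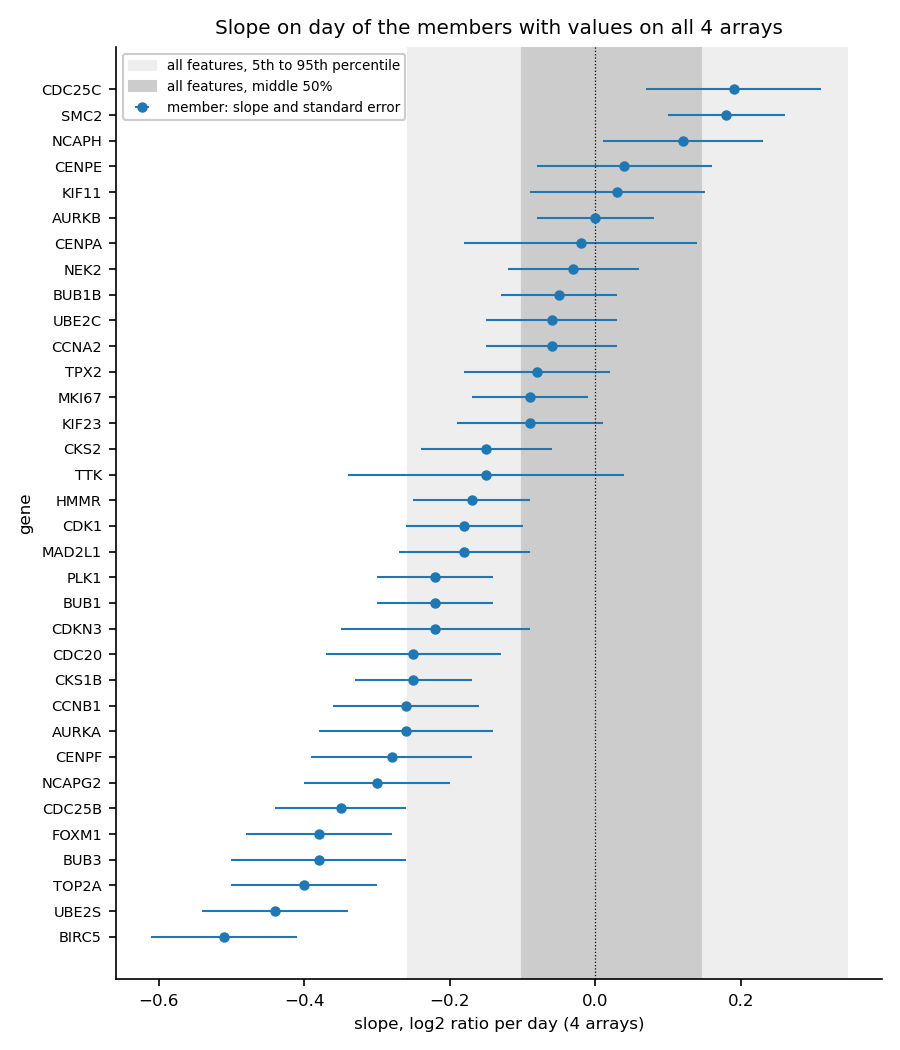
Fitted slope of each log2 ratio (log2 per day) and its standard error for the 34 genes with values on all 4 arrays, in order. Shaded bands give the middle 50% and the 5th to 95th percentile of the slopes of all features, and 28 of the 34 slopes lie below 0, from BIRC5 at -0.51 upward.

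Averaged over the 4 arrays, 30 of the 36 genes lay below 0 (56.0% of all features), with a median mean of -0.143 against -0.032. None passed (0 of 36, against 0.337% of all features, limma adjusted p under 0.05; smallest adjusted p 0.196), and 3 had an unadjusted p under 0.05, all lower (6.0%, with 6.47% higher among all features): NCAPG2, BUB1B and UBE2C. The mean hides the opposite signs of day 1 and the later days. Without the day 1 array its median over the genes was -0.267, and without the day 4 array -0.056. On days 3 and 4 alone the median was -0.262, with 32 of 36 genes below 0. In that fit 4 genes passed, all lower (11.1%, against 3.12% of all features lower and 6.58% in either direction, limma adjusted p under 0.05): NCAPG2 at -0.99 ± 0.13 (standard error, 2 arrays; adjusted p = 0.00717), BIRC5 at -0.54 ± 0.12 (0.0378), CKS1B at -0.51 ± 0.11 and MAD2L1 at -0.50 ± 0.11 (0.0389 for each). The unmoderated spread of each gene there rests on 1 difference between arrays. With array weights BUB1B and NCAPG2 passed, both lower (limma adjusted p = 0.0483 and 0.0136), 5.56% against 1.88% of all features lower and 3.77% in either direction. The weights of days 1 to 4 were 0.408, 0.45, 3.023 and 1.8. This fit thus rests mostly on days 3 and 4, the arrays of the fit before it.

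Other genes of mitosis, listed apart from the 50, were mostly below the control on average, with a day 1 median near that of all features. Of 71 such genes 35 were measured, 28 with a mean below 0 and a median of -0.171, and none passed on the mean or the slope. Their medians by day were -0.054, -0.276, -0.158 and -0.306, and 19 of 30 slopes were below 0 (median -0.084). HJURP, the chaperone that loads CENPA, read 0.42, -0.09, -0.20 and -0.71, and the kinesin KIF20B -0.05, 0.15, -0.34 and -0.87. NEDD1, which brings γ-tubulin to the spindle, was below 0 on all 4 days, between -0.65 and -0.03. KIFC1, another kinesin, had -2.22 on day 2 and 0.01 and 0.03 on days 3 and 4, so its low mean rests on 1 array.

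Among the regulators that act on these promoters, MYBL2 (B-MYB), which joins MuvB to switch on late cell cycle genes, read 0.31, -0.67, -0.60 and -1.04. Of 10 measured regulators 8 had a mean below 0 (median -0.061), 7 slopes were below 0, and none passed. TFDP2, a partner of E2F factors, read 0.28, 0.19, -0.23 and -0.33, and RBL1 (p107) -0.24, -0.54, 0.02 and -0.10. Tubulins were low late, with TUBA1A at 0.20, -0.34, -0.64 and -0.95 and TUBB at 0.11, -0.12, -0.26 and -0.60, the only 2 measured of 14.

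The cohesins, and the core subunits of the anaphase-promoting complex, lay nearer the control than the mitotic members on days 3 and 4, with medians of -0.045 and -0.07 for the cohesins and -0.094 and -0.11 for the core subunits. On days 1 and 2 the cohesin medians were -0.16 and -0.238. Of 4 measured core subunits 3 had a mean below 0 (median -0.097), and ANAPC2 read 0.94 on day 1 and -0.14 on day 4. Of 9 cohesin genes, which hold sister chromatids together, 8 had a mean below 0 (median -0.155) but only 4 had a slope below 0. ESCO1, a cohesin acetyltransferase, read -0.90, -0.74, 0.30 and 0.30, and SMC1A -0.33, -1.23, 0.18 and 0.24. STAG2, a cohesin subunit, was above 0 on all 4 days, between 0.15 and 0.46. None of these genes passed.

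**Figure D5:**
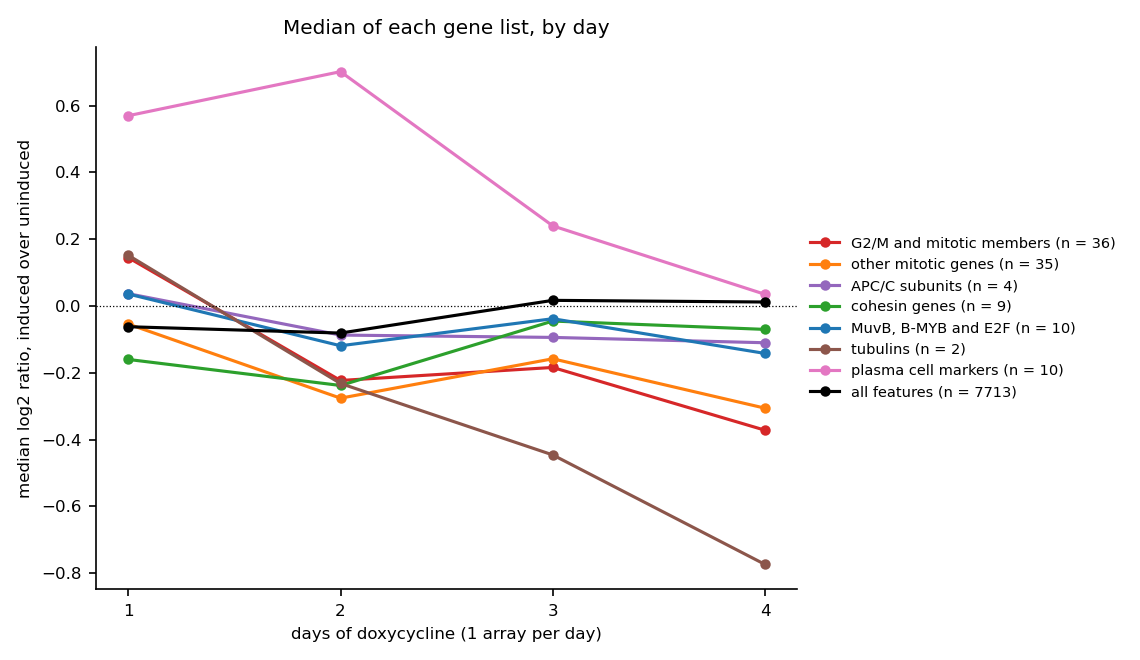
Median log2 ratio of induced over uninduced cells in each gene list on each day, with the number of genes measured on at least 3 arrays in the key. The mitotic members run from 0.145 to -0.372 and the 2 tubulins end lowest, while all features stay between -0.081 and 0.017.

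The arrays give ratios, so the level of plasma cell markers in EJM cannot be checked from them. All 10 plasma cell markers listed were measured, 9 with a mean above 0 and 9 with a slope below 0, and their median was 0.57, 0.702, 0.24 and 0.035 on days 1 to 4. Medians of T cell markers (8 of 10 measured) lay between -0.002 and 0.145, of myeloid markers (7 of 9) between -0.143 and 0.136, and of red cell and stromal markers (5 of 11) between -0.003 and 0.267. HBB, described as a red cell gene, was called higher at 0.85 ± 0.09 (SD, 4 arrays; limma adjusted p = 0.0381). The part of these markers in the day course of the mitotic genes was not tested.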

How the data were processed

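Total RNA of EJM cells was hybridised on 4 arrays with 2 colours, per the labels. The deposited table gives 1 log ratio for each of 15246 probes and array, used here as log2. Its base, direction, background correction, normalization and spot filter were not stated in any source at hand. Array medians lay between -0.068 and 0.004. Of the probes, 10169 had 1 gene symbol, 4 several and 5073 none, and symbols were updated by Entrez identifier with a RefSeq table (GRCh38.p14), which held 10128. Probes of a symbol were averaged per array. limma 3.58.1 (R 4.3.3; lmFit and eBayes, two-sided, Benjamini-Hochberg over all features, threshold 0.05) tested the mean against 0 for features with at least 3 values and the slope on day for those with 4. The scripts were tested on simulated data. Each day has 1 array, and nothing says that the arrays came from separate cultures, so the spread behind each p-value is that between days and may be partly technical. Signal over background was not used here, and the number of arrays limits the precision.

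Members, lists and motifs were chosen with earlier results of these data known. Daily values are given for every measured member. After all alternatives were first run for every member, the tested means and slopes printed were limited to those with an unadjusted p under 0.05, and, in the other lists, to the gene called. From the mitotic lists up to 4 genes each are named, by the size of the mean or slope. Alternatives were array centring and scaling, the choice of probes, array weights, the arrays used and the filter on missing values.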

Additional observations from a re-analysis of the deposited data

Results flagged for a closer look

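The 4 arrays are 4 days and not replicates, so Dixon's ratio here marks a day apart from the others, and chance alone marks about 1 in 20 groups. Of 34 genes with all 4 values, 2 had such a day. CDKN3 was high on day 1, at 0.71, with the other days between -0.17 and -0.05, and its probes gave 0.60 and 0.81 on day 1. CENPE was low on day 2, at -0.64, with the other days between -0.10 and -0.02.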

How the results depend on the processing

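The number of features called on the mean was 26, against 291 with array weights, 569 with days 3 and 4 alone, 1 with days 1 and 2 alone, 42 with a value required on all 4 arrays, and 3 to 5 when an array was left out. The number called on the slope was 0 in the fit reported and under each alternative run. The median slope of the mitotic genes was -0.177, from -0.193 (without day 2) to -0.09 (without day 1) when an array was left out. With the other alternatives run, the members' median on the mean and on the slope kept its sign. The 3 means and 12 slopes printed with a test kept their sign under each alternative run, but they had been chosen by their unadjusted p once values were seen, so this is no evidence of stability. Of the other members, 18 of 33 means (44 of 384 values) and 14 of 22 slopes (28 of 220) changed sign under at least 1 alternative. Induced and uninduced RNA were paired on each array, and the tests use these ratios. No further pairing was possible because each day has 1 array and the labels give no replicate numbers. How far dim signal limits these values was not tested, because no intensities were used here.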
